A study of Mus musculus with 6 samples.

Results

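The DNA replication and S phase genes are 48 genes of origin licensing, the replicative helicase, the replicative polymerases, nucleotide supply, chromatin assembly and E2F control, chosen by symbol. All 48 were found, each as a locus of its own, among the 23793 loci of the deposited expression table of newborn mouse cerebellum. RNA was sequenced at postnatal day 0 from 3 conditional knockout libraries (cKO, genotype Zeb2 f/f; hGFAP-cre) and 3 control libraries (genotype Zeb2 f/+; hGFAP-cre). Zeb2 encodes a zinc finger repressor of transcription, and in hGFAP-cre mice the human GFAP promoter drives Cre in neural progenitors, so that cells of other origin in the tissue keep the gene. Both groups carried Cre and at least 1 floxed allele, and no library without Cre was analysed here. The labels name neither the strain, the sex nor the number of animals behind a library, so the p-values cover only the spread among these libraries, which may be technical.

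Before S phase, the origin recognition complex, Cdc6 and Cdt1 load the Mcm2 to Mcm7 ring on DNA, and geminin blocks a further round of loading. At the start of S phase, Cdc45 and the GINS proteins join the ring to form the active helicase, behind which polymerase alpha with its primase, polymerase delta and polymerase epsilon copy the strands. Most of these genes are transcribed at the G1 to S transition by E2F factors. In the newborn cerebellum, the cells that divide most are the granule neuron progenitors of the external granule layer, beside glial progenitors and the precursors of interneurons and oligodendrocytes.

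Values were read as FPKM, fragments per kilobase of transcript, scaled to the mapped fragments of the library, which allows levels of different genes to be compared per length. Fold changes are differences of group means of log2(FPKM + 1), cKO minus control, and understate the change of genes at a few FPKM. They were tested with limma over the 13612 loci that reached 1 FPKM in 3 or more of the 6 libraries, with Benjamini-Hochberg adjustment over all of them and a threshold of 0.05. The sums of FPKM were 497542 to 523234 in the cKO libraries and 520950 to 524474 in the controls, and the sources used here do not give the number of reads behind them. Zeb2 itself stood at 6.19, 3.89 and 5.81 FPKM in cKO 1, 2 and 3, against 11.4, 9.52 and 7.995 FPKM in controls 1, 2 and 3. Zeb2 had a log2 fold change of -0.77 (SE 0.176, limma adjusted p = 0.107; exact two-sided permutation p = 0.1, the smallest that 3 against 3 allows), and did not pass the threshold, although the cKO values were all below the lowest control value. Xist averaged 144 ± 3.05 FPKM in cKO and 0.394 ± 0.105 FPKM in controls (SD, n = 3 each) and the Y-linked Eif2s3y 0.0766 ± 0.0435 FPKM in cKO and 35.8 ± 1.36 FPKM in controls (SD, n = 3 each), so every difference given here is one of genotype and sex together, which cannot be told apart. Low values of cKO 3 and control 1 shared one pattern of steps, and those of cKO 1 and 2 with controls 2 and 3 another, and these are called processing sets here.

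The values of the replication genes were lower in cKO cerebellum in every role, with median log2 fold changes from -0.35 (helicase) to -0.25 (clamp and Okazaki processing), although a single gene, Mcm4, passed the test over all loci. All 48 had a log2 fold change below 0, as had 53.0% of all loci tested. The median log2 fold change of the 48 was -0.30, against -0.01 over all loci tested, and 4.71% of all loci lay at or below that median. In terms of mean FPKM, the median gene stood in cKO at 79.5% of its control level, with a range of 69.6% for Uhrf1 to 95.3% for Ccne1. In 27 genes cKO was under 80% of control, in 17 it was between 80 and 90%, and in 4 (Orc6, Gins3, Rfc2 and Ccne1) it was above 90%. In 41 of the 48 genes the cKO values were all below the lowest control value, which was the case for 13.6% of all loci tested. In bulk tissue, fewer cells in S phase and less of these RNAs per cell cannot be told apart.

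Over all loci tested, 1 of the 48 passed (Mcm4, lower), beside 0.331% of all loci passing as lower and 0.573% in either direction. At an unadjusted limma p under 0.05, 42 of the 48 were lower, against 9.79% of all loci. With the loci of small RNAs left out of the fit, 11 of the 48 passed, all lower (Mcm2, Mcm3, Mcm4, Mcm6, Mcm7, Gins1, Pcna, Fen1, Tk1, Chaf1a and Uhrf1), against 1.53% of all loci. The same 11 passed with robust variance estimation (1.51% of all loci). The fold changes of the genes were the same in all 3 fits, which differ in how the variance is estimated across loci. When 1 library was dropped and small RNAs were kept, none of the 48 passed by limma, whichever library it was.

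**Figure D1:**
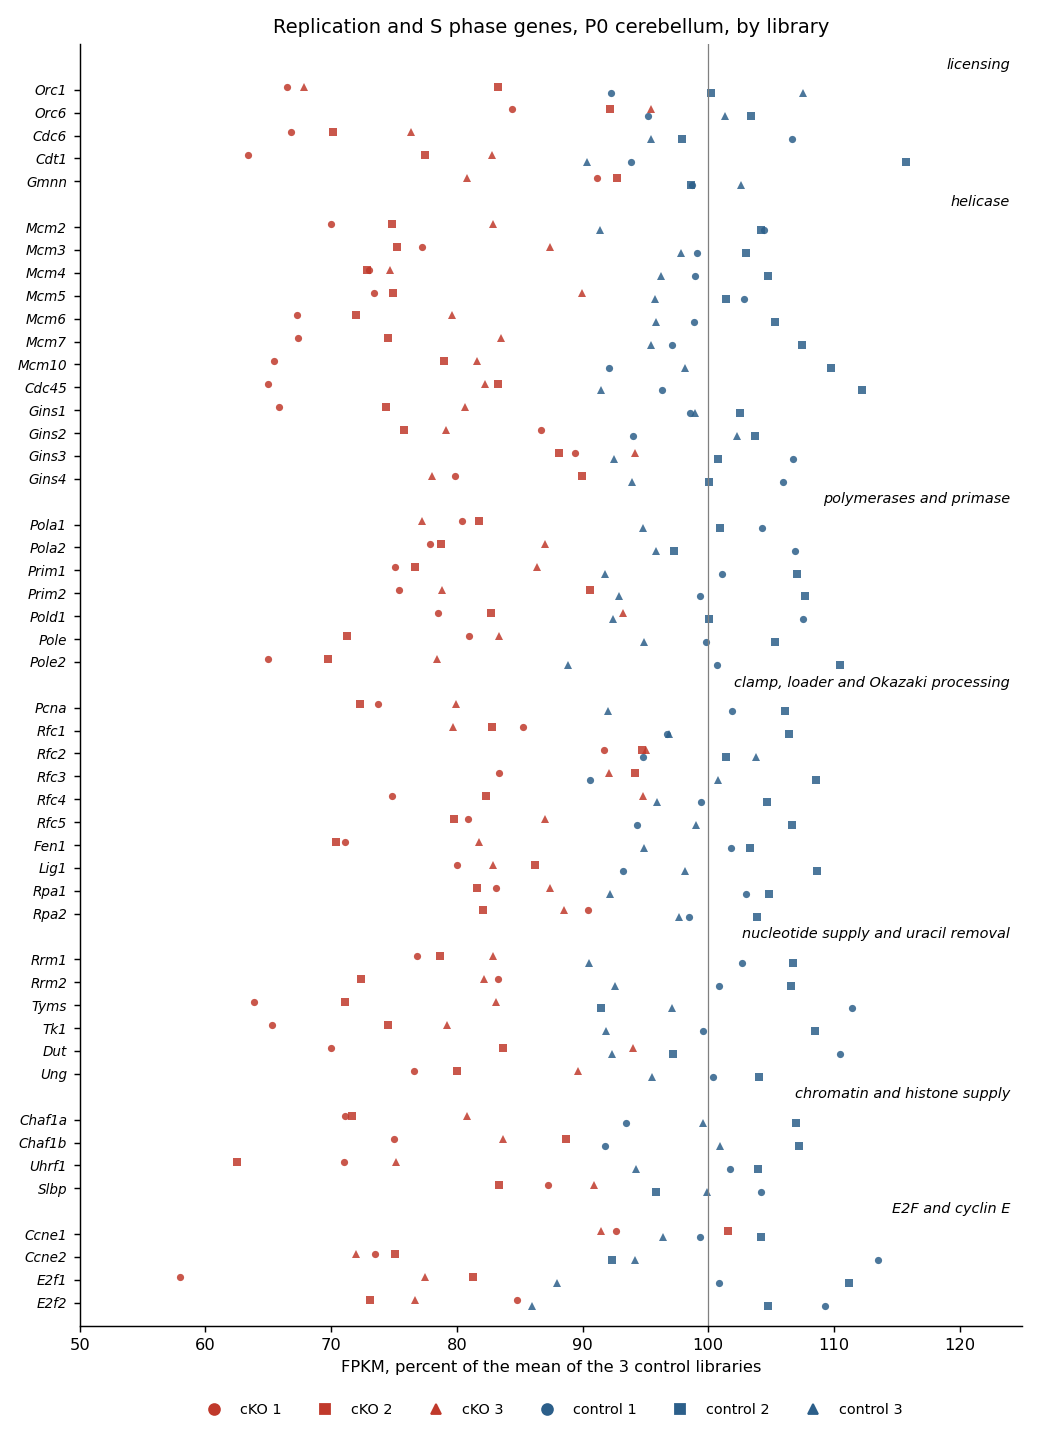
FPKM of each of the 48 genes in each library, as a percentage of the mean of the 3 control libraries (x axis), with genes in rows by role, cKO libraries in red above control libraries in blue. In 41 of the 48 rows the 3 cKO points lie left of all 3 control points.

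The spread within each group was small beside these differences. The SD over 3 libraries had a median over the genes of 7.75% of the mean in cKO and 6.66% in controls. The libraries of a group kept an order over many genes. Within cKO, cKO 3 was the highest library for 31 of the 48 genes and cKO 1 the lowest for 28, while over all loci tested these libraries held those places for 35.1% and 35.6%. Within the controls, control 2 was the highest for 32 genes and control 3 the lowest for 32, against 31.4% and 31.8% of all loci. As a mean over the 48 genes of log2(FPKM + 1) minus the control mean, the levels were -0.36, -0.30 and -0.23 in cKO 1, 2 and 3, against 0.0033, 0.055 and -0.059 in controls 1, 2 and 3. The highest cKO library therefore lay below the lowest control by more than the controls differed among themselves, and cKO 3 lay nearest to the controls. The labels come in 2 formats, read here as 2 deposits, and cKO 3 and control 3 make up the second. In the first deposit alone the median log2 fold change of the 48 genes was -0.37, against -0.30 over all libraries. Whether the deposits differ was not tested. Summed over the 48 genes, the level was 819, 847 and 905 FPKM in cKO 1, 2 and 3, against 1077, 1129 and 1026 FPKM in controls 1, 2 and 3, or 0.162 to 0.174% of all FPKM in cKO libraries and 0.197 to 0.217% in controls. The median log2 fold change was -0.34 without cKO 3 and -0.27 without control 2.

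The promoters of the 48 genes were searched for motifs, since E2F sites and the neighbouring CCAAT box are the elements through which genes of this kind are known to be activated. RefSeq windows of 300 bases (GRCm38.p6, 250 before to 50 after an annotated start) were at hand for 39 of the 48 genes. These genes had 45 windows, and a gene was counted if any of its windows held the motif. An E2F site (TTTCCCGC, TTTCGCGC, TTTGCCGC or TTTGGCGC on either strand) was present for 15 of the 39, or 38.5%, against 4.64% of the 10137 genes tested that had a window and 2.60% of all genes in the promoter table. Of 59 further replication genes with a window, 32.2% held an E2F site, and of 27 G2 and mitosis genes 3.70%. The CCAAT box (CCAAT, either strand) was present for 59.0% of the replication genes, against 49.2% of the further replication genes, 85.2% of the G2 and mitosis genes and 43.0% of the genes tested. The CHR element of late cell cycle genes (TTTGAA, either strand) was present for 12.8% of the replication genes, against 23.7% of the further replication genes, 74.1% of the G2 and mitosis genes and 13.5% of the genes tested. The E-box bound by Zeb factors (CACCTG, either strand) was present for 15.4% of the replication genes, against 15.3% of the further replication genes, 11.1% of the G2 and mitosis genes and 20.8% of the genes tested. Each motif was counted on its own, so letters of neighbouring matches can overlap, and a match describes letters and not a bound site.

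The E2F matches upstream of a start are shown for all 9 genes that had one there, with the matching letters in capitals, 5′ to 3′ on the strand of the gene, from RefSeq (GRCm38.p6):
Mcm6 (chr1:128359725-128359835, minus strand): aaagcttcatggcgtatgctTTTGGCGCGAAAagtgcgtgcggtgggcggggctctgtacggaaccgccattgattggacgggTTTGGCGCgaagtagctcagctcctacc
Mcm5 (chr8:75109336-75109387, plus strand): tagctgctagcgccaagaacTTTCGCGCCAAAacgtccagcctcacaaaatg
Mcm7 (chr5:138172021-138172068, minus strand): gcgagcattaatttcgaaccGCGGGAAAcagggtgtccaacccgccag
Gins3 (chr8:95633498-95633545, plus strand): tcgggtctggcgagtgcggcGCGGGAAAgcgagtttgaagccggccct
Cdc6 (chr11:98907993-98908040, plus strand): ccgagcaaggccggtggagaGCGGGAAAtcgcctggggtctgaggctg
Orc1 (chr4:108579407-108579453, plus strand): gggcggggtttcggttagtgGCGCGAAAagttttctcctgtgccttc
Uhrf1 (chr17:56304108-56304155, plus strand): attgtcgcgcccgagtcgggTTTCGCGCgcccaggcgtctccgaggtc
Pola1 (chrX:93632266-93632313, minus strand): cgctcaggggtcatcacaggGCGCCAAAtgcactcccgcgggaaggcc
Rfc3 (chr5:151651209-151651238, minus strand): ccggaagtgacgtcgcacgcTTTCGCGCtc
Mcm6 and Mcm5 hold overlapping matches on both strands, starting 110 and 153 bases before the start, and Mcm6 holds a further one 47 bases before it. In Gins3, whose groups overlapped, the match starts 41 bases before the start. In Orc1 and Rfc3 the match starts 27 and 10 bases before the start. In Uhrf1 the match lies in the window at chr17:56304063-56304362, and the window of another annotated start, at chr17:56303087-56303386, held no E2F match. Of the 15 genes with a match, 6 had it after the start only. The 15 genes with a match had a median log2 fold change of -0.31 and the 24 genes with a window and no match -0.30.

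**Figure D2:**
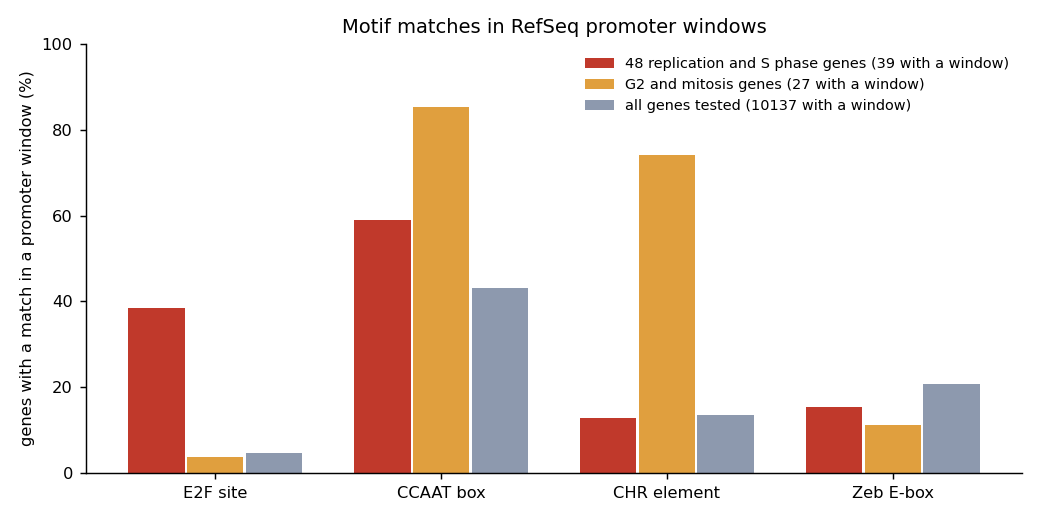
Percentage of genes with a motif match in a promoter window (y axis) for the replication and S phase genes, the G2 and mitosis genes and all genes tested. The E2F site is present for 38.5% of the replication genes and 4.64% of all genes tested, and the CHR element for 74.1% of the G2 and mitosis genes.

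The 5 licensing genes had a median log2 fold change of -0.28, and in 4 of them (all but Orc6) the groups did not overlap. Cdc6, the ATPase that loads the Mcm ring, stood at 2.42, 2.55 and 2.77 FPKM in cKO 1, 2 and 3, against 3.87, 3.55 and 3.46 FPKM in controls 1, 2 and 3. Cdc6 had a log2 fold change of -0.37 (SE 0.0725, limma adjusted p = 0.0801). Cdt1, its partner in loading, stood at 11.1, 13.6 and 14.5 FPKM in cKO 1, 2 and 3, against 16.5, 20.3 and 15.9 FPKM in controls 1, 2 and 3 (log2 fold change -0.40, SE 0.123, limma adjusted p = 0.185), where control 2 lay above the other controls. Orc1, the subunit of the origin recognition complex that comes and goes with the cell cycle, was low in all libraries, at 1.23, 1.55 and 1.26 FPKM in cKO 1, 2 and 3, against 1.71, 1.86 and 2.00 FPKM in controls 1, 2 and 3. Orc1 had a log2 fold change of -0.28 (SE 0.0853, limma adjusted p = 0.174). The 2 others were closer to control: Gmnn, which encodes geminin, averaged 14.2 ± 1.04 FPKM in cKO and 16.1 ± 0.368 FPKM in controls (SD, n = 3 each), and Orc6, a small subunit of the origin recognition complex, 19.3 ± 1.21 FPKM in cKO and 21.3 ± 0.908 FPKM in controls (SD, n = 3 each). In Orc6 the highest cKO library (cKO 3) overlapped the lowest control (control 1).

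The 12 helicase genes had the most negative median of the 7 roles, -0.35, and in 11 of them (all but Gins3) the cKO values were all below the lowest control value. Mcm4, a subunit of the ring (GRCm38 chromosome 16, 15623897 to 15637400), stood at 16.4, 16.3 and 16.7 FPKM in cKO 1, 2 and 3, against 22.2, 23.5 and 21.6 FPKM in controls 1, 2 and 3. The cKO values were closer to each other than the control values were, and the groups did not overlap. Mcm4 averaged 16.5 ± 0.224 FPKM in cKO and 22.4 ± 0.973 FPKM in controls (SD, n = 3 each) and fell (log2 fold change -0.42, SE 0.0508, limma adjusted p = 0.0305). It was the gene with the smallest SE of the 48. Its adjusted p was 0.0632 to 0.132 with 1 library left out, and its log2 fold change lay between -0.46 and -0.39 over 29 alternative settings, in 16 of which it passed.

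The other ring subunits did not pass over all loci, and their fold changes lay between -0.45 and -0.31. Mcm6 stood at 30.9, 33.0 and 36.5 FPKM in cKO 1, 2 and 3, against 45.3, 48.3 and 44.0 FPKM in controls 1, 2 and 3. Mcm6 had a log2 fold change of -0.45 (SE 0.0728, limma adjusted p = 0.0645). Mcm7 stood at 42.4, 46.9 and 52.5 FPKM in cKO 1, 2 and 3, against 61.1, 67.6 and 60.1 FPKM in controls 1, 2 and 3. Mcm7 had a log2 fold change of -0.41 (SE 0.0881, limma adjusted p = 0.0945). Mcm2 stood at 20.5, 21.9 and 24.2 FPKM in cKO 1, 2 and 3, against 30.6, 30.5 and 26.7 FPKM in controls 1, 2 and 3. Mcm2 had a log2 fold change of -0.38 (SE 0.0814, limma adjusted p = 0.0905). In these 3 genes cKO 1 was the lowest and cKO 3 the highest of the cKO libraries, and cKO 3 still lay under control 3, the lowest control. Mcm3 stood at 23.7, 23.1 and 26.8 FPKM in cKO 1, 2 and 3, against 30.4, 31.6 and 30.01 FPKM in controls 1, 2 and 3 (log2 fold change -0.31, SE 0.0661, limma adjusted p = 0.0904), and Mcm5 at 19.9, 20.3 and 24.4 FPKM in cKO 1, 2 and 3, against 27.9, 27.5 and 25.999 FPKM in controls 1, 2 and 3. Mcm5 had a log2 fold change of -0.32 (SE 0.0835, limma adjusted p = 0.132). With small RNAs left out, Mcm2, Mcm3, Mcm6 and Mcm7 passed (limma adjusted p = 0.0435, 0.0483, 0.0236 and 0.0416) and Mcm5 did not (0.0764). The proteins form the ring in equal numbers, whereas the RNAs per length ran from 16.5 FPKM (Mcm4) to 47.3 FPKM (Mcm7) in cKO and from 22.4 to 62.9 FPKM in controls. The order of the group means, Mcm7, Mcm6, Mcm3, Mcm2, Mcm5 and Mcm4, was the same in both groups, with Mcm3, Mcm2 and Mcm5 close to each other.

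Among the factors that activate the ring, Gins1, a GINS subunit, stood at 7.80, 8.81 and 9.55 FPKM in cKO 1, 2 and 3, against 11.7, 12.1 and 11.7 FPKM in controls 1, 2 and 3. Gins1 had a log2 fold change of -0.41 (SE 0.0761, limma adjusted p = 0.0762; 0.0351 with small RNAs left out). Gins2 and Gins4, which encode further subunits of the same complex, had log2 fold changes of -0.29 and -0.26. Gins3 was the exception among the helicase genes, with 3.28 ± 0.114 FPKM in cKO and 3.62 ± 0.259 FPKM in controls (SD, n = 3 each), a log2 fold change of -0.11 and 1 cKO library above the lowest control. The proteins of the complex are present once each, and the RNAs ran from 3.28 to 13.5 FPKM in cKO and from 3.62 to 16.7 FPKM in controls. Cdc45, the partner of GINS in the active helicase, averaged 6.77 ± 0.906 FPKM in cKO and 8.81 ± 0.957 FPKM in controls (SD, n = 3 each), and Mcm10, which is needed to activate the helicase, 5.40 ± 0.621 FPKM in cKO and 7.17 ± 0.645 FPKM in controls (SD, n = 3 each).

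**Figure D3:**
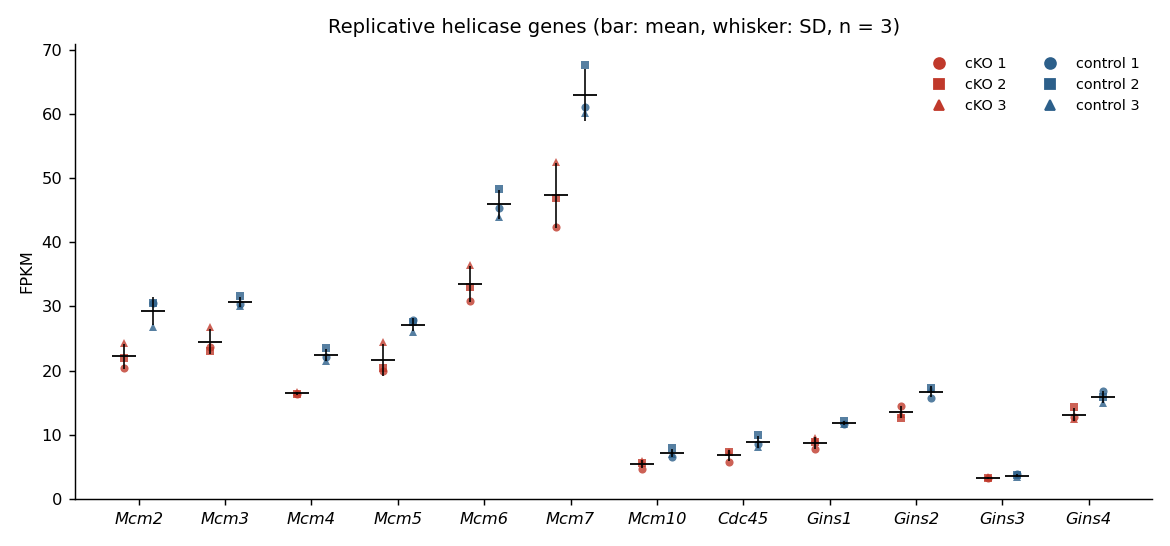
FPKM of the 12 helicase genes by library (points), with the mean and SD of 3 libraries, cKO in red to the left of control in blue. The 3 cKO values of Mcm4 lie between 16.3 and 16.7 FPKM and its control values between 21.6 and 23.5 FPKM, while Gins3 overlaps.

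The 7 genes of polymerases and primase had a median log2 fold change of -0.28 and a narrow range, -0.38 to -0.22. Pole2, the second subunit of polymerase epsilon, stood at 2.78, 2.99 and 3.35 FPKM in cKO 1, 2 and 3, against 4.31, 4.73 and 3.80 FPKM in controls 1, 2 and 3 (log2 fold change -0.38, SE 0.0922, limma adjusted p = 0.116), and Pole, its catalytic subunit, at 7.04, 6.20 and 7.25 FPKM in cKO 1, 2 and 3, against 8.68, 9.16 and 8.26 FPKM in controls 1, 2 and 3. Pole had a log2 fold change of -0.31 (SE 0.0742, limma adjusted p = 0.116). Pola1, the catalytic subunit of polymerase alpha and the only one of the 48 genes on the X chromosome, stood at 3.88, 3.95 and 3.73 FPKM in cKO 1, 2 and 3, against 5.03, 4.87 and 4.58 FPKM in controls 1, 2 and 3. Pola1 had a log2 fold change of -0.26 (SE 0.0625, limma adjusted p = 0.115). Its groups did not overlap. Prim1 and Prim2, the primase subunits, averaged 79.4 and 81.6% of control in cKO, and Pola2, the B subunit of polymerase alpha, 81.2%. Pold1, the catalytic subunit of polymerase delta, was at 84.8%, and its cKO 3 value (16.1 FPKM) lay above its control 3 value (15.9 FPKM).

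Among the 10 genes of the sliding clamp, its loader, single-strand binding and Okazaki fragment processing (median log2 fold change -0.25), Pcna and Fen1 had the most negative fold changes. Pcna, the clamp that holds the polymerases on DNA and the most abundant of the 48 RNAs, stood at 112, 109.8 and 121 FPKM in cKO 1, 2 and 3, against 155, 161 and 139.6 FPKM in controls 1, 2 and 3. Pcna had a log2 fold change of -0.40 (SE 0.0721, limma adjusted p = 0.0724). Fen1, the nuclease that trims Okazaki fragments, stood at 13.1, 12.97 and 15.1 FPKM in cKO 1, 2 and 3, against 18.8, 19.0 and 17.5 FPKM in controls 1, 2 and 3. Fen1 had a log2 fold change of -0.40 (SE 0.0720, limma adjusted p = 0.0724). Both passed with small RNAs left out (limma adjusted p = 0.0270 and 0.0303). Rfc1, the large subunit of the loader, stood at 13.3, 12.9 and 12.4 FPKM in cKO 1, 2 and 3, against 15.04, 16.6 and 15.1 FPKM in controls 1, 2 and 3 (log2 fold change -0.26, SE 0.0590, limma adjusted p = 0.107), and Rfc4 and Rfc5 had log2 fold changes of -0.24 and -0.26. Rfc2 and Rfc3 were nearer to control, at 93.8 and 89.9% of it in cKO, and their groups overlapped. Lig1, the ligase that joins Okazaki fragments, was at 83.0%, and the single-strand binding genes Rpa1 and Rpa2 at 84.0 and 87.0% of control.

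The 6 genes of nucleotide supply and uracil removal had a median of -0.32. Tk1, the thymidine kinase of S phase, stood at 15.6, 17.9 and 19.0 FPKM in cKO 1, 2 and 3, against 23.9, 26 and 22.0 FPKM in controls 1, 2 and 3. Tk1 had a log2 fold change of -0.43 (SE 0.0891, limma adjusted p = 0.0886; 0.0369 with small RNAs left out). Rrm1 and Rrm2 encode the large and small subunits of ribonucleotide reductase, which makes deoxynucleotides. Rrm1 stood at 30.4, 31.1 and 32.8 FPKM in cKO 1, 2 and 3, against 40.7, 42.3 and 35.8 FPKM in controls 1, 2 and 3 (log2 fold change -0.32, SE 0.0714, limma adjusted p = 0.101), and Rrm2 at 30.4, 26.4 and 29.96 FPKM in cKO 1, 2 and 3, against 36.8, 38.9 and 33.7 FPKM in controls 1, 2 and 3. Rrm2 had a log2 fold change of -0.33 (SE 0.0767, limma adjusted p = 0.113). The 2 subunit RNAs were at close levels in both groups, 79.5 and 79.3% of control in cKO. Tyms, thymidylate synthase, averaged 4.64 ± 0.622 FPKM in cKO and 6.39 ± 0.657 FPKM in controls (SD, n = 3 each), and Ung, the uracil glycosylase, 8.64 ± 0.710 FPKM in cKO and 10.5 ± 0.448 FPKM in controls (SD, n = 3 each). Dut, which removes dUTP, ran from 19.3 to 25.9 FPKM in cKO and from 25.5 to 30.5 FPKM in controls, and the groups overlapped.

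Among the 4 chromatin and histone genes (median -0.32), Uhrf1, which brings the maintenance DNA methyltransferase to newly copied DNA, had the most negative log2 fold change of the 48. It stood at 27.8, 24.5 and 29.4 FPKM in cKO 1, 2 and 3, against 39.8, 40.7 and 36.9 FPKM in controls 1, 2 and 3. Uhrf1 had a log2 fold change of -0.51 (SE 0.0775, limma adjusted p = 0.0537; 0.0174 with small RNAs left out), and all cKO libraries were under the lowest control. Chaf1a, the large subunit of the chromatin assembly factor, stood at 9.77, 9.85 and 11.1 FPKM in cKO 1, 2 and 3, against 12.8, 14.7 and 13.7 FPKM in controls 1, 2 and 3 (log2 fold change -0.39, SE 0.0742, limma adjusted p = 0.0771), and Chaf1b, its partner, averaged 82.5% of control. Slbp, which binds the stem loop of histone mRNAs, stood at 26.8, 25.6 and 27.9 FPKM in cKO 1, 2 and 3, against 32.0, 29.5 and 30.7 FPKM in controls 1, 2 and 3. Slbp had a log2 fold change of -0.19 (SE 0.0553, limma adjusted p = 0.164). The mRNAs of replication-dependent histones end in that stem loop and mostly lack a poly(A) tail. Of 67 loci of the Hist1, Hist2 and Hist3 clusters, 7 passed the filter on low values, with log2 fold changes from -0.14 to 0.55 and a median of 0.14, and none had a limma p under 0.05. With no filter the median was -0.02 over 58 loci, so its sign depended on the filter. Of the 7, the 3 with the smallest p were Hist1h1c, Hist1h2bc and Hist3h2a. Hist1h1c, a linker histone gene, stood at 11.5, 9.33 and 9.07 FPKM in cKO 1, 2 and 3, against 7.98, 8.54 and 4.58 FPKM in controls 1, 2 and 3. Hist1h1c had a log2 fold change of 0.48 (SE 0.208, limma adjusted p = 0.295). Hist1h2bc, an H2B gene, stood at 10.2, 5.24 and 10.2 FPKM in cKO 1, 2 and 3, against 6.20, 6.59 and 3.54 FPKM in controls 1, 2 and 3 (log2 fold change 0.55, SE 0.286, limma adjusted p = 0.375), and Hist3h2a, an H2A gene, at 76.1, 86.5 and 100.2 FPKM in cKO 1, 2 and 3, against 87.0, 74.6 and 76.4 FPKM in controls 1, 2 and 3 (log2 fold change 0.14, SE 0.109, limma adjusted p = 0.568).

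The 4 regulators of the E2F and cyclin E group had a median of -0.29 and the widest range. E2f1, an activating E2F factor, stood at 11.7, 16.4 and 15.6 FPKM in cKO 1, 2 and 3, against 20.3, 22.4 and 17.7 FPKM in controls 1, 2 and 3 (log2 fold change -0.45, SE 0.137, limma adjusted p = 0.180), with cKO 1 well below the other cKO libraries and the largest SE of the 48. E2f2, a further activator, stood at 3.25, 2.80 and 2.93 FPKM in cKO 1, 2 and 3, against 4.18, 4.01 and 3.29 FPKM in controls 1, 2 and 3. E2f2 had a log2 fold change of -0.27 (SE 0.0936, limma adjusted p = 0.220). Cyclin E, which with Cdk2 drives the entry into S phase, is encoded by a pair of genes, whose difference from each other was not tested. Ccne2 stood at 1.92, 1.96 and 1.88 FPKM in cKO 1, 2 and 3, against 2.97, 2.42 and 2.46 FPKM in controls 1, 2 and 3. Ccne2 had a log2 fold change of -0.30 (SE 0.0815, limma adjusted p = 0.144). Ccne1 stood at 9.46, 10.4 and 9.34 FPKM in cKO 1, 2 and 3, against 10.1, 10.6 and 9.84 FPKM in controls 1, 2 and 3 (log2 fold change -0.06, SE 0.0623, limma adjusted p = 0.642), the smallest difference of the 48, with overlapping groups.

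**Figure D4:**
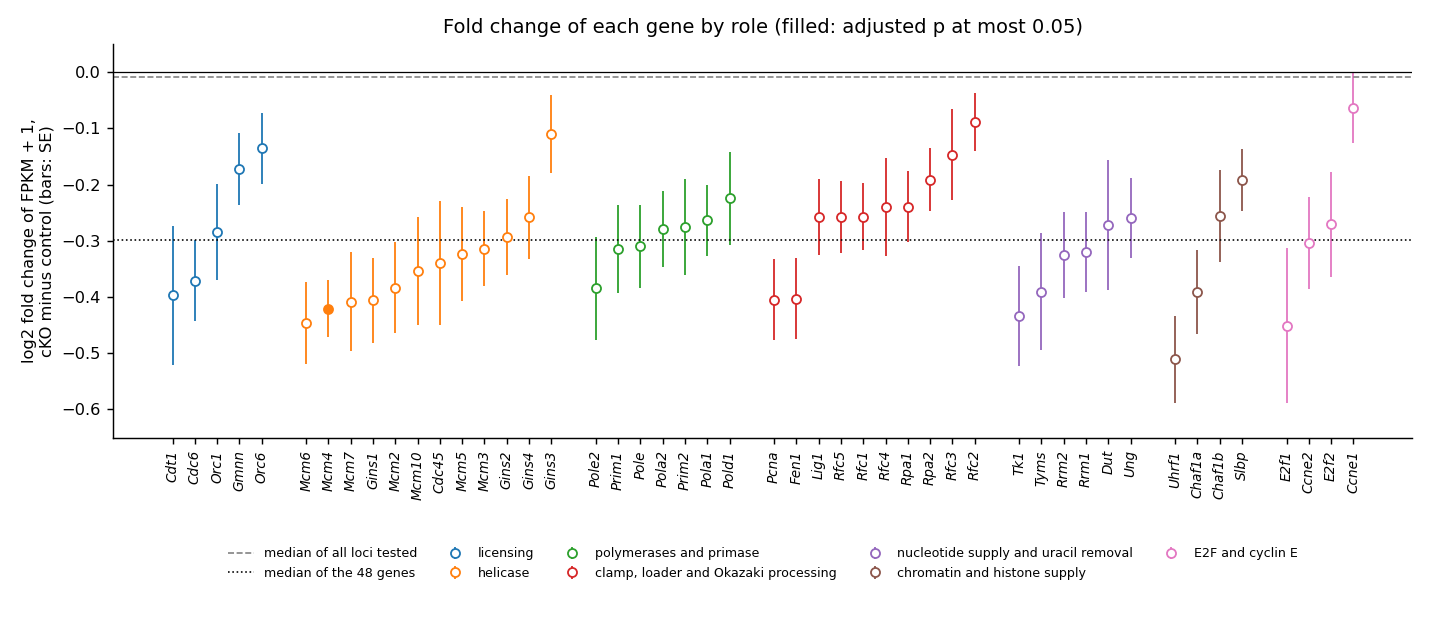
Log2 fold change of FPKM + 1, cKO minus control, with SE for each of the 48 genes by role (y axis), beside the median of the genes and of all loci tested. All points lie below 0, from -0.51 (Uhrf1) to -0.06 (Ccne1), and Mcm4 is the filled point.

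Of 72 further genes of replication and S phase, 70 had a log2 fold change below 0, with a median of -0.21. None passed over all loci by limma. At an unadjusted limma p under 0.05 there were 47, all lower, against 9.79% of all loci. With small RNAs left out 13 passed, all lower, against 1.53% of all loci. In 49 of the 72 the cKO values were all below the lowest control value, which was the case for 13.6% of all loci tested. The 3 with the smallest p were Clspn, Fbxo5 and Exo1. Clspn encodes claspin of the replication checkpoint and stood at 4.56, 4.2004 and 4.71 FPKM in cKO 1, 2 and 3, against 6.50, 7.83 and 6.73 FPKM in controls 1, 2 and 3. Clspn had a log2 fold change of -0.54 (SE 0.0825, limma adjusted p = 0.0537). Fbxo5 encodes the inhibitor Emi1 of the anaphase-promoting complex and stood at 8.31, 8.98 and 9.14 FPKM in cKO 1, 2 and 3, against 11.3, 13.4 and 12.1 FPKM in controls 1, 2 and 3. Fbxo5 had a log2 fold change of -0.43 (SE 0.0739, limma adjusted p = 0.0706). Exo1, an exonuclease of DNA repair, stood at 1.68, 2.02 and 1.95 FPKM in cKO 1, 2 and 3, against 2.86, 2.94 and 2.81 FPKM in controls 1, 2 and 3. Exo1 had a log2 fold change of -0.43 (SE 0.0739, limma adjusted p = 0.0722). In these 3 genes the groups did not overlap. The 2 genes above 0 were Pole4, an accessory subunit of polymerase epsilon, and Tk2, the mitochondrial thymidine kinase, at 0.01 and 0.00.

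Genes of the following cell cycle phases were read in the same way. All 30 G2 and mitosis genes had log2 fold changes below 0, with a median of -0.40. Over all loci 6 passed (Aurkb, Aurka, Bub1b, Cdc20, Top2a and Bub1), against 0.331% of all loci passing as lower. With small RNAs left out, 21 of the 30 passed, against 1.53% of all loci. Aurkb, a mitotic kinase, fell, with 12.8, 14.0 and 13.3 FPKM in cKO 1, 2 and 3, against 19.0, 20.1 and 18.6 FPKM in controls 1, 2 and 3. Aurkb had a log2 fold change of -0.49 (SE 0.0567, limma adjusted p = 0.0250). Aurka, a kinase of the spindle poles, fell, with 6.73, 6.18 and 6.96 FPKM in cKO 1, 2 and 3, against 10.3, 9.88 and 9.52 FPKM in controls 1, 2 and 3. Aurka had a log2 fold change of -0.52 (SE 0.0637, limma adjusted p = 0.0320). In both kinases the groups did not overlap. Bub1b and Bub1 encode kinases of the spindle checkpoint. Bub1b fell, with 10.3, 10.7 and 10.3 FPKM in cKO 1, 2 and 3, against 14.4, 15.5 and 14.1 FPKM in controls 1, 2 and 3 (log2 fold change -0.46, SE 0.0563, limma adjusted p = 0.0320), and Bub1 fell, with 4.78, 4.27 and 4.92 FPKM in cKO 1, 2 and 3, against 7.37, 7.34 and 6.61 FPKM in controls 1, 2 and 3. Bub1 had a log2 fold change of -0.52 (SE 0.0741, limma adjusted p = 0.0439). Cdc20, which activates the anaphase-promoting complex, fell, with 20.7, 19.5 and 20.6 FPKM in cKO 1, 2 and 3, against 28.5, 28.9 and 26.3 FPKM in controls 1, 2 and 3. Cdc20 had a log2 fold change of -0.44 (SE 0.0559, limma adjusted p = 0.0331). Top2a, the topoisomerase that untangles sister DNA, fell, with 38.3, 35.6 and 34.7 FPKM in cKO 1, 2 and 3, against 48.3, 53.3 and 49.3 FPKM in controls 1, 2 and 3. Top2a had a log2 fold change of -0.46 (SE 0.0603, limma adjusted p = 0.0336). In all 6 genes the cKO values were all below the lowest control value. When 1 library was dropped, Cdc20 passed in 1 of the 6 fits and the other 5 genes in none. The library levels of this list, as a mean of log2(FPKM + 1) minus the control mean, were -0.36, -0.41 and -0.41 in cKO 1, 2 and 3, against -0.030, 0.076 and -0.046 in controls 1, 2 and 3. Here cKO 3 did not lie nearest to the controls, whereas it did for the replication genes. Whether the fold changes of the replication and the mitosis genes differ was not tested.

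**Figure D5:**
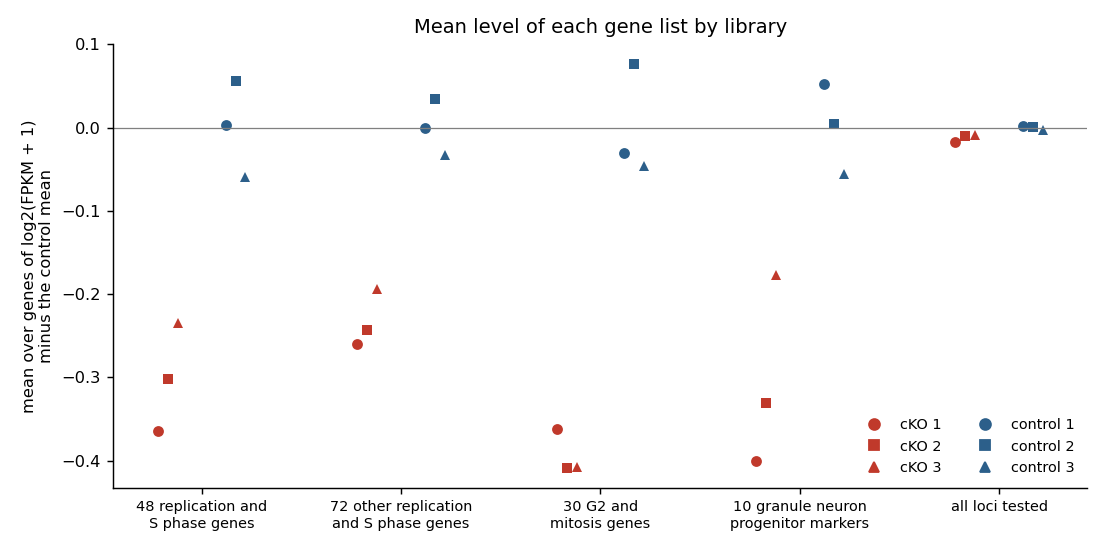
Mean over the genes of a list of log2(FPKM + 1) minus the control mean (y axis) in each library, cKO in red to the left of control in blue. The 48 replication genes lie at -0.36, -0.30 and -0.23 in cKO 1, 2 and 3, and all loci tested lie near 0 in every library.

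Markers of cell types that the tissue holds were read beside these genes. Zic1, a transcription factor of cerebellar granule cells, stood at 265, 277 and 270.4 FPKM in cKO 1, 2 and 3, against 313, 294 and 263 FPKM in controls 1, 2 and 3, so a defining marker of the labelled tissue was present in every library. Of 10 granule neuron progenitor markers, 9 had a log2 fold change below 0 (median -0.31). Their summed level was 589 to 648 FPKM in cKO libraries and 646 to 733 FPKM in controls. No marker was at 0 and none passed over all loci by limma. At an unadjusted limma p under 0.05 there were 6, all lower, against 9.79% of all loci. With small RNAs left out, Gli2 and Gli1 passed (limma adjusted p = 0.0192 and 0.0234), against 1.53% of all loci passing as lower. Gli2 and Gli1, transcription factors of the hedgehog pathway that drives division of these progenitors, stood at 5.66, 5.72 and 6.61 FPKM in cKO 1, 2 and 3, against 8.76, 10.6 and 9.20 FPKM in controls 1, 2 and 3 for Gli2 and 12.9, 10.4 and 14.1 FPKM in cKO 1, 2 and 3, against 21.0, 23.5 and 18.6 FPKM in controls 1, 2 and 3 for Gli1. Mycn, an effector of that pathway, had a log2 fold change of -0.28. It stood at 38.5, 36.6 and 38.7 FPKM in cKO 1, 2 and 3, against 50.5, 42.0 and 46.8 FPKM in controls 1, 2 and 3. The mean level of the list was lowest in cKO 1 and highest among cKO in cKO 3, as for the 48 replication genes. Among the controls the order differed, with control 1 highest for the progenitor markers and control 2 highest for the replication genes. Radial and Bergmann glia markers summed to 2234 to 2498 FPKM in cKO libraries and 2716 to 2833 FPKM in controls, with 6 of 9 below 0 and 3 above. None passed over all loci by limma. In Gdf10, Slc1a3 and Vim the cKO values were all below the lowest control value, with log2 fold changes of -1.26, -0.81 and -0.74. With small RNAs left out, Vim passed (limma adjusted p = 0.0149) and Gdf10 and Slc1a3 did not (0.154 and 0.136). Markers of differentiating granule neurons summed to 1219 to 1399 FPKM in cKO and 1233 to 1266 FPKM in controls, with 4 of 7 below 0. None passed over all loci, and 1 passed, lower, with small RNAs left out. Purkinje cell markers summed to 752 to 798 FPKM in cKO and 687 to 747 FPKM in controls, all 6 of them above 0. In 5 of them the cKO values were all above the highest control value, as in 1408 of the 13612 loci tested. None passed over all loci or with small RNAs left out. Oligodendrocyte precursor markers summed to 196 to 221 FPKM in cKO and 111 to 145 FPKM in controls, with 3 of 6 above 0, a median log2 fold change of -0.13 and most of the sum from Olig1 and Olig2. As a mean of log2(FPKM + 1) minus the control mean, this list lay at 0.21, -0.17 and 0.02 in cKO 1, 2 and 3, against -0.06, -0.09 and 0.15 in controls 1, 2 and 3, so its mean level overlapped between the groups. Gpr17 and Pdgfra, receptors of these precursors, did not pass over all loci and had log2 fold changes of -0.88 and -0.29, with the cKO values all below the lowest control value. With small RNAs left out, Gpr17 passed (limma adjusted p = 0.0274) and Pdgfra did not (0.0552). Olig2, a partner of Olig1, did not pass over all loci and had a log2 fold change of 0.65, with the cKO values all above the highest control value. It passed with small RNAs left out (limma adjusted p = 0.0417). Microglia markers summed to 43.4 to 46.6 FPKM in cKO and 31.5 to 32.5 FPKM in controls, all 7 above 0. All 7 had an unadjusted limma p under 0.05, as had 1064 of the 13612 loci tested in the higher direction. In all 7 the cKO values were all above the highest control value, as in 1408 of these loci. Among these 7, Aif1 stood at 1.01, 1.44 and 1.12 FPKM in cKO 1, 2 and 3. In controls 1, 2 and 3 it stood at 0.606, 0.955 and 0.840 FPKM. Aif1 thus met the filter only through the group where it was high, so its part in these counts is no support for a difference. With small RNAs left out 4 of the 7 passed, all higher, beside 129 of all loci. Over all loci, a marker passed in each of the oligodendrocyte precursor and microglia lists: Olig1, which oligodendrocyte precursors need to mature, rose, with 155, 146 and 139.8 FPKM in cKO 1, 2 and 3, against 70.4, 62.4 and 85.1 FPKM in controls 1, 2 and 3 (log2 fold change 1.02, SE 0.112, limma adjusted p = 0.0231), and Csf1r, the receptor that microglia need, rose, with 6.58, 6.19 and 5.61 FPKM in cKO 1, 2 and 3, against 4.04, 4.17 and 4.09 FPKM in controls 1, 2 and 3. Csf1r had a log2 fold change of 0.48 (SE 0.0701, limma adjusted p = 0.0483). In both the groups did not overlap. When 1 library was dropped, Olig1 passed in 2 of the 6 fits and Csf1r in none. Endothelial markers summed to 59.5 to 63.6 FPKM in cKO and 50.6 to 60.1 FPKM in controls, with 4 of 5 above 0. Meningeal markers summed to 12.1 to 50.02 FPKM in cKO and 4.23 to 19.7 FPKM in controls, with all 6 above 0. Their median log2 fold change of 1.04 was the largest of the marker lists, and none passed over all loci by limma. An unadjusted limma p under 0.05 was found for 2 (Ptgds and Foxc1), as for 1064 of the 13612 loci tested in the higher direction. In these 2 the cKO values were all above the highest control value, as in 1408 of these loci. With small RNAs left out Ptgds passed, higher (limma adjusted p = 0.0254), beside 129 of all loci. Erythroid markers summed to 12.3 to 13.9 FPKM in cKO and 6.62 to 26.1 FPKM in controls. Of 2 loci named Hba-a1, an alpha globin gene, 1 passed and stood at 2.14, 1.15 and 1.56 FPKM in cKO 1, 2 and 3 and was listed at 0 in every control. That locus met the filter only through the cKO libraries, so its call is no support for a rise. The other Hba-a1 locus had a log2 fold change of -0.64 and did not pass (limma adjusted p = 0.482). Reads can be split between such near-identical loci. No marker of these lists was at 0 in all libraries, and the part of cell type shares in the levels of the replication genes was not tested.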

How the data were processed

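Cerebellar RNA from postnatal day 0 was sequenced in 3 cKO and 3 control libraries, grouped and numbered by their titles (the description of cKO 1 carries the number 3). The authors used Trizol for extraction and an Illumina TruSeq RNA kit for the libraries, per the labels' protocols. The programs named in the submitters' processing notes are CASAVA, TopHat and Cufflinks, and the build is mm10. The deposited values were read as FPKM from the Cufflinks locus names and the values, since no label names the unit. The sources used here do not give versions, annotation, strand setting, read depth or scaling, so reads of overlapping antisense transcripts cannot be told apart, and depth limits the precision of low values.

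Loci that reached 1 FPKM in 3 or more of the 6 libraries were tested on log2(FPKM + 1) with limma 3.58.1 (R 4.3.3, trend, two-sided), adjusted by Benjamini-Hochberg over all 13612 loci. The fit was checked on simulated data. Alternatives were a block for the replicate number, the deposit (2 label formats) and the processing set as covariates or alone, each library left out, other pseudocounts, filters, scalings, variance estimates and thresholds, and small-RNA or X and Y loci left out. Leaving out small-RNA loci together with the processing set or with each library was added after the data were seen. The processing set was read from steps between values under 0.1 FPKM, which 7 of 15 pairs of libraries shared. Gene positions and promoter windows are those of RefSeq (GRCm38.p6, the assembly of mm10). The 48 genes, the lists, the tests and the alternatives were chosen with earlier results of these data known. Values in every library are given for genes past the threshold, the 3 with the smallest p in each role, Mcm2 to Mcm7 and any of the 48 above 0, and for genes of the replication, mitosis and histone lists past the threshold or among the 3 with the smallest p. Of the marker lists, those past the threshold are given, with the 3 of smallest p for granule neuron progenitors. Ccne1, Zic1, Pole4, Tk2, Olig2, Gpr17, Pdgfra, Gdf10, Slc1a3, Vim, Aif1, Ptgds and Foxc1 were chosen after their values were seen. Figures were made with Python 3.11.15 and matplotlib 3.10.9.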

Additional observations from a re-analysis of the deposited data

How the results depend on the processing

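All 48 genes kept their direction in the alternatives that could be fitted, and no result changed sign with a call. The count of genes that pass depends on the processing, and the causes were not tested. Of all loci tested 78 passed, and 1 of the 48 genes, Mcm4. Over all loci, 22 passed with the deposit as a covariate, 30 in the larger processing set alone, 28 with no filter, 30 with a mean of at least 5 FPKM, 336 with robust variance estimation, 333 with small-RNA loci left out and 539 when the processing set was added to that fit. Of the 48 genes, 0 passed by limma with the deposit as a covariate, in the first deposit alone, in the larger processing set alone or with no filter, 11 with robust variance estimation or with small-RNA loci left out, and 17 when the processing set was added to the fit without small RNAs. At a threshold of 0.1, 409 loci and 12 of the 48 genes passed, and at 0.01 20 loci and 0 of the 48, beside 42 of the 48 at an unadjusted limma p under 0.05. With a library left out, 21 (without cKO 1) to 55 (without control 3) loci and 0 of the 48 genes passed. With small-RNA loci left out as well, 34 (without control 2) to 318 (without cKO 3) loci and 0 to 12 of the 48 genes passed, and without control 3 these were 255 loci and 8 genes, without cKO 2 2 genes. The median log2 fold change then lay between -0.34 and -0.27 for the 48 genes and between -0.44 and -0.34 for the G2 and mitosis genes. In the first deposit alone it was -0.37 for the 48 genes and -0.27 for the further replication genes, and the histone median, untested, was -0.03, against 0.14 over all libraries. Zeb2 passed with small-RNA loci left out (log2 fold change -0.77, limma adjusted p = 0.0436) and when the processing set was also a covariate (adjusted p = 0.0327), but with small-RNA loci and a library left out it passed in 1 of 6 fits (0.0446 without control 3, and 0.0526 to 0.160 in the others). Its log2 fold change lay between -0.88 and -0.59 with a library left out. Read depth is unknown, which limits genes at a few FPKM most.

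With the replicate number as a block, 15 loci and 0 of the 48 genes passed by limma. Deviations from the group means correlated at -0.027, 0.037 and 0.049 for numbers 1, 2 and 3. Of the cKO libraries, cKO 2 correlated best with its own number, cKO 1 with control 2 and cKO 3 with control 1. Such deviations cancel within each group of 3 libraries, so they cannot decide whether the numbers pair the libraries. In both groups number 3 is the library of the second deposit.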
